A study of Mus musculus with 23 samples.

Results

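The genes described here are the 9 members of a set for iron uptake, storage, and export: Tfrc, Tfr2, Steap3, Slc11a2, Slc25a37, Fth1, Ftl1, Slc40a1, and Hfe. They were taken by gene symbol from the TPM table, which has 17644 entries, and joined to the count table by gene ID. All 9 were found and all 9 passed the filter on low counts, among 14364 genes tested. In GRCm38.p6, the uptake genes lie at chr16:32608896-32632794 (Tfrc, gene ID 22042), chr5:137569822-137588081 (Tfr2, 50765), chr1:120226414-120271081 (Steap3, 68428), and chr15:100387898-100424209 (Slc11a2, 18174), and the mitochondrial importer at chr14:69241848-69285544 (Slc25a37, 67712). The ferritin genes lie at chr19:9980600-9985111 (Fth1, 14319) and chr7:45457944-45459886 (Ftl1, 14325), the exporter at chr1:45908070-45926532 (Slc40a1, 53945), and Hfe at chr13:23702034-23710854 (15216). Bulk RNA-Seq had been run on bone of 23 females of strain C57BL6/N, all 11 weeks old, using femur and tibia depleted of marrow. Nondiabetic WT mice numbered 5 (WT Control) and diabetic WT mice 6 (WT T1D), with 6 nondiabetic (KO Control) and 6 diabetic (KO T1D) Sarm1 KO mice. Diabetes had been induced with repeated doses of streptozotocin, a drug toxic to pancreatic β cells, at 100 mg/kg, 3 weeks before tissue collection, and Control mice had been given saline. Sarm1, an enzyme of axon degeneration that consumes NAD, is deleted in all cells of KO mice, and WT mice were littermates or were bought on the same background. The groups address whether loss of Sarm1 alters the skeletal response to T1D.

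Iron reaches most cells bound to transferrin. Transferrin receptor 1 (Tfrc) takes this complex into endosomes, Steap3 reduces the released iron, and the transporter DMT1 (Slc11a2) moves it to the cytosol. Red cell precursors then pass most of it through mitoferrin 1 (Slc25a37) into mitochondria for heme. Ferritin, built from heavy (Fth1) and light (Ftl1) chains, stores iron, and ferroportin (Slc40a1) is the exporter, prominent in macrophages that recycle red cells. Tfr2 and Hfe take part in sensing of transferrin iron. Bone marrow is the main site of red cell production in adult mice, so iron handling in bone is shared among erythroid cells, macrophages, and cells of the bone itself.

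Several of these mRNAs are under control of the iron-responsive element (IRE), a short hairpin bound by iron regulatory proteins when cell iron is low. An IRE near the 5′ end blocks translation, and those in the 3′ untranslated region (UTR) protect the mRNA from decay. The UTRs of GENCODE M21 transcripts (GRCm38) were searched on the transcript strand for the letters of the hairpin, a C followed by 5 bases, the 6-base loop CAGTGN, and 5 bases that pair with the first 5. The loop is in capitals in the sequences that follow, which are shown because they divide the members into those with a 5′ element, those with 3′ elements, and those with no match to these letters.
Fth1, 5′ UTR, chr19:9982733-9982759, plus strand: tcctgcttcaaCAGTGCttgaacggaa
Ftl1, 5′ UTR, chr7:45459780-45459806, minus strand: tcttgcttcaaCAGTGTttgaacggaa
Slc40a1, 5′ UTR, chr1:45925466-45925492, minus strand: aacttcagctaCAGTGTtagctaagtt
Tfrc, 3′ UTR, chr16:32631220-32631246, plus strand: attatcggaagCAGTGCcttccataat
Tfrc, 3′ UTR, chr16:32631599-32631625, plus strand: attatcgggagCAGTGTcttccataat
Tfrc, 3′ UTR, chr16:32631664-32631690, plus strand: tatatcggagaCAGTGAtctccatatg
Tfrc, 3′ UTR, chr16:32631711-32631737, plus strand: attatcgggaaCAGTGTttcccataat
A match was held by 0.151% of genes with a 5′ UTR (31 of 20597) and by 0.614% of genes with a 3′ UTR (129 of 20995). The element was annotated in 4 of 5 coding transcripts of Fth1, 1 of 2 of Ftl1, 1 of 4 of Slc40a1, and 1 of 3 of Tfrc. Counts were made per gene and do not separate these isoforms. The letters were searched in no other form, so the absence of a match in Tfr2, Steap3, Slc11a2, Slc25a37, and Hfe says only that these letters are not in those UTRs. The mRNA levels given below do not measure translation, the step on which a 5′ element acts.

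Total counts per mouse ranged from 16938101 to 20135592, and the members had between 224 (Hfe) and 37250 (Ftl1) counts in any mouse. Sarm1 itself was near the limit of detection, at 5 to 32 counts per mouse, and was not lower in the libraries labelled KO (median CPM of 0.739 for KO Control and 1.24 for KO T1D, against 0.931 and 0.671 for the WT groups). Such low counts do not show the genotype, which rests here on the labels. By qPCR, the study found Sarm1 mRNA to be low in bone and significantly lower in KO than in WT mice. The WT groups came from mouse IDs of different series. IDs beginning with A17 accounted for 1 WT Control and 3 WT T1D mice, and all other mice were from A36 to A39. Among the latter, KO T1D mice had IDs from A3674 to A3683, and WT T1D mice had IDs from A3905 to A3909. KO T1D and WT T1D thus shared no ID range, so genotype and ID range cannot be told apart between them. Neither the A36 to A39 mice alone nor a term for the ID series, which marks only A17, separates the 2. In addition, 2 WT T1D mice, A3905 and A3906, stood apart. Hemoglobin genes took 21.4% and 21.1% of their counts, compared with 9.73% to 13.9% in WT Control, 12.3% to 16.03% in the other WT T1D mice, and 8.01% to 15.8% in the KO groups. Of 18 erythroid markers fixed for this work, 17 were tested. With T1D in WT, all 17 had positive log2 fold changes, with a median of 0.56, and 8 passed the threshold in edgeR, as did 2.33% of all genes. With A3905 and A3906 left out, all 17 were still positive (median 0.41), and 0 were called, as were 0% of all genes. Markers of osteoblasts and osteocytes were present in all groups, with summed levels of 30680 to 63150 TPM in WT Control, 31070 to 70100 TPM in KO Control, and 34280 to 52280 TPM in KO T1D, but in WT T1D they were at 1900 TPM in A3905 and 1580 TPM in A3906, compared with 31400 to 40650 TPM in the other mice. Values with and without A3905 and A3906 are therefore given for many of the members and gene lists. Values given with all mice alone, such as those of the erythroid score model, may also rest on these mice. In bulk tissue, fewer cells of a type and less RNA per cell cannot be told apart.

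The iron genes spanned a wide range of levels. TPM values, which correct for gene length, were used to compare genes with each other. Ftl1 was the most abundant member, with a mean of 2604 TPM over the 23 mice, followed by Fth1 with 1495 TPM and Slc25a37 with 316 TPM. This order of the top places was the same in every mouse. Tfrc (80.4 TPM), Slc40a1 (54.1 TPM), and Steap3 (40.1 TPM) came next, and Tfrc and Slc40a1 exchanged places in some mice, as did Slc40a1 and Steap3. Slc11a2 (18.7 TPM), Hfe (15.5 TPM), and Tfr2 (12.4 TPM) were lowest, and their order varied between mice. Light chain mRNA exceeded heavy chain mRNA in all groups. The TPM ratio of Ftl1 to Fth1 was 1.94 ± 0.366 (SD, n = 5) for WT Control and 1.71 ± 0.131 for WT T1D. It was 1.70 ± 0.0852 for KO Control and 1.68 ± 0.105 for KO T1D (n = 6 each). The wider spread in WT Control, from 1.48 to 2.27, covered all of the KO Control and KO T1D values. Tfrc exceeded Tfr2 by a TPM ratio of 6.51 ± 1.68, 6.82 ± 1.44, 6.80 ± 1.00, and 5.91 ± 0.683 in the same order of groups.

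**Figure D1:**
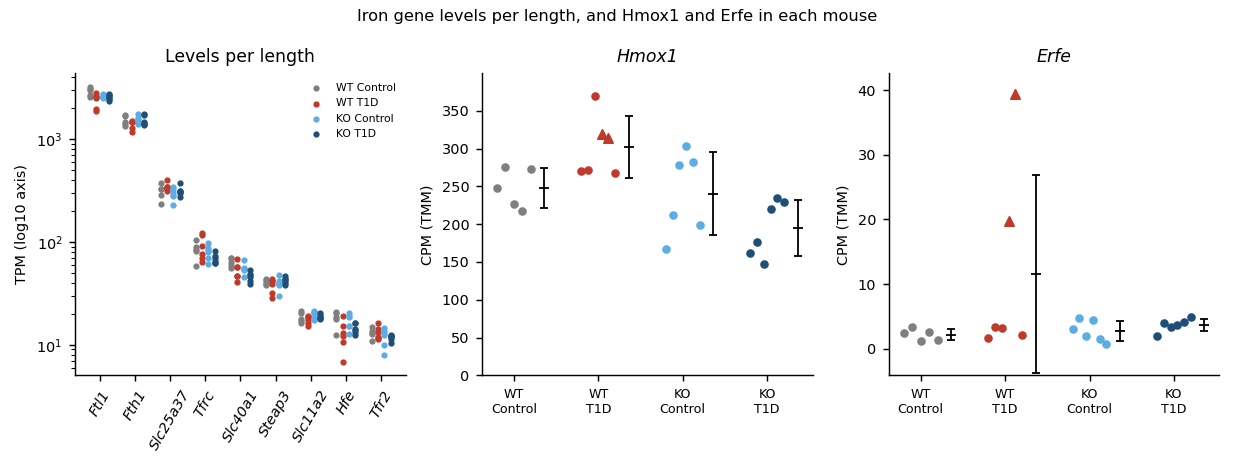
Left, TPM of each of the 9 iron genes in each mouse on a log10 axis, colored by group. Middle and right, CPM of Hmox1 and Erfe in each mouse, with mean ± SD beside the points and triangles for mice A3905 and A3906. Ftl1, Fth1, and Slc25a37 lie above the other members in every mouse, and the high Erfe values of 19.7 and 39.4 CPM belong to A3905 and A3906.

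Within a gene, mice were compared by CPM, the counts scaled to library size with edgeR's TMM factors, and groups were compared with edgeR's quasi-likelihood test across all 14364 genes. A gene was called at a Benjamini-Hochberg adjusted p under 0.05. In WT mice, none of the 9 members was called by edgeR with T1D, while 2.33% of all genes tested were (334 genes). This number moved widely when 1 mouse was left out, from 0 without A3767 or A3907 to 1262 without A3909. It was 3 without A3903, 7 without A3905, 11 without A3906, 13 without A3904, and 29 without A1787, and it was 0 without both A3905 and A3906. Of the 9, 4 had an unadjusted p under 0.05 (Slc25a37, Slc11a2, Tfrc, and Tfr2), all with higher values in T1D, compared with 22.2% of all genes. Without A3905 and A3906, 0 of 9 had an unadjusted p under 0.05 by edgeR, compared with 11% of all genes. Without these mice, 8 of 9 fold changes were positive (median 0.11). With all mice, a positive fold change was found for 7 of 9. The median was then 0.16 on the log2 scale compared with -0.01 for all genes. None of the members had T1D values that lay clear of the WT Control values, as was the case for 2.19% of genes.

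**Figure D2:**
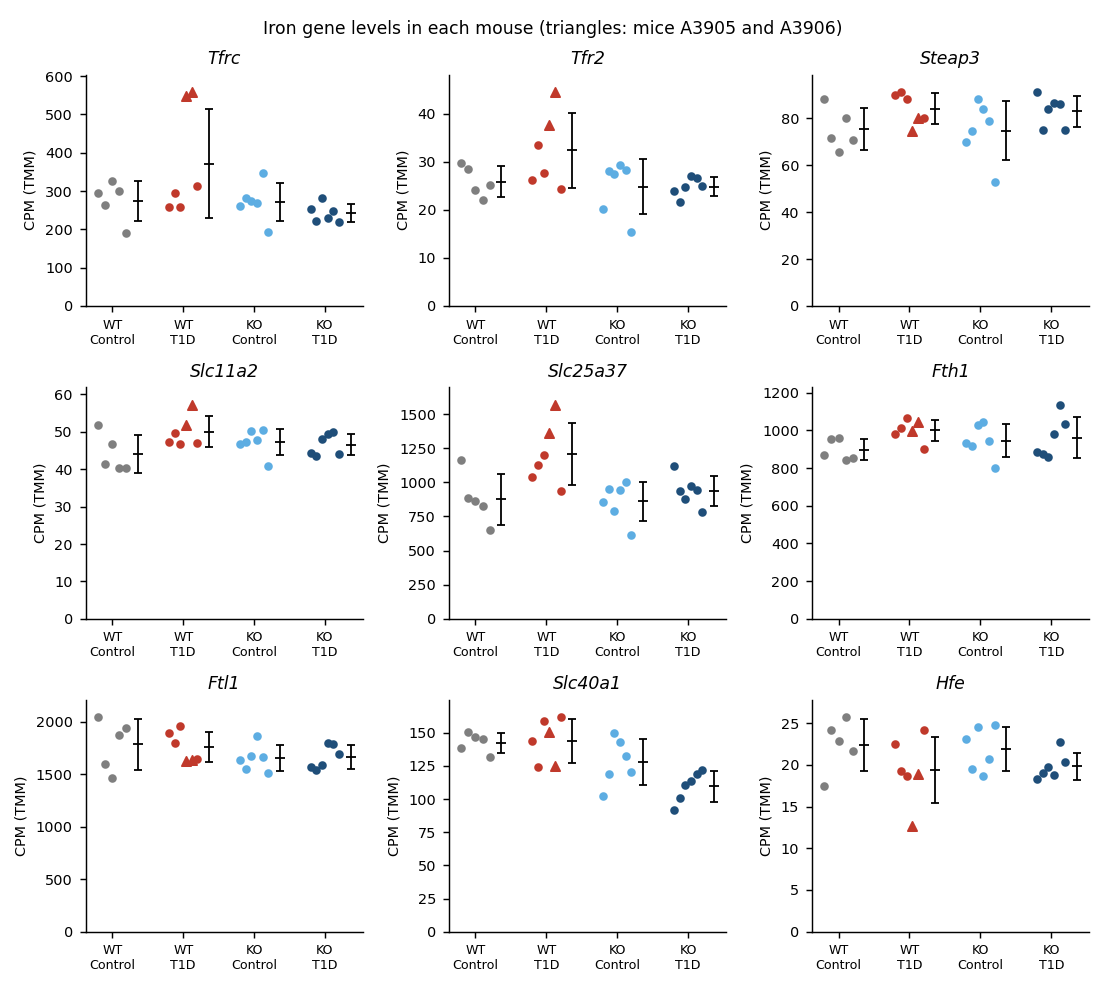
CPM of the 9 iron genes in each mouse by group, with mean ± SD beside the points and triangles for WT T1D mice A3905 and A3906. The Tfrc values of these mice, 548 and 560 CPM, lie above all other mice, and all KO T1D mice lie below all WT T1D mice for Slc40a1.

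Among genes of uptake, Tfrc was at 294 CPM in A1757, 263 in A3767, 325 in A3903, 301 in A3904, and 191 in A3907 in WT Control. In WT T1D, Tfrc was at 257 CPM in A1764, 294 in A1787, 258 in A1758, 548 in A3905, 560 in A3906, and 314 in A3909. Thus, A3905 and A3906 were far above the range of WT Control, and the other T1D mice were within it. With all mice, the log2 fold change was 0.44 (SE 0.19, adjusted p = 0.185 by edgeR), and it was 0.03 (SE 0.14) when A3905 and A3906 were both left out. In A36 to A39 mice alone, which keeps A3905 and A3906 as 2 of 3 T1D mice, it was 0.83 (SE 0.20, adjusted p = 0.0158 by edgeR). In the A17 series, the T1D values of 257, 294, and 258 CPM were compared with a single WT Control value of 294 CPM. A fit that split the WT groups by series, with the spread pooled over all mice, gave -0.12 (SE 0.29, adjusted p = 1 by edgeR) for Tfrc within this series and called none of the 9 members. This fit assumes that the lone Control mouse varies like the other groups. With the ID series as a term over all mice, Tfrc was at 0.51 (SE 0.18, adjusted p = 0.0802 by edgeR), and again none of the 9 was called, compared with 5.58% of all genes. Both fits were chosen after the data were seen.

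Tfr2 was at 29.8, 28.5, 24.1, 21.98, and 25.2 CPM in the WT Control mice and ranged from 24.5 to 44.7 CPM in WT T1D, with a median of 30.7. The highest values were again those of A3906 and A3905 (37.7 CPM). Its log2 fold change was 0.32 (SE 0.16, adjusted p = 0.224 by edgeR) and was 0.11 (SE 0.15) without these mice. Steap3 ranged from 65.8 to 88.2 CPM in WT Control and from 74.6 to 91.3 CPM in WT T1D, with a log2 fold change of 0.16 (SE 0.10, adjusted p = 0.366). Unlike Tfrc and Tfr2, the lowest Steap3 value in WT T1D was that of A3905.

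Slc11a2 was at 51.9, 41.3, 46.8, 40.3, and 40.5 CPM in WT Control and ranged from 46.7 to 57.3 CPM in WT T1D, with a median of 48.6. All T1D mice were above the WT Control mean of 44.1 CPM, but only A3905 and A3906 were above the highest WT Control mouse. Its log2 fold change of 0.18 (SE 0.08) had an adjusted p of 0.169 by edgeR, and that in A36 to A39 mice alone was 0.32 (SE 0.09, adjusted p = 0.0274). This subset keeps A3905 and A3906. With single mice left out, the fold change was lowest without A3906, at 0.15. Without both A3905 and A3906, no member, Slc11a2 among them, had an unadjusted p under 0.05 by edgeR, compared with 11% of all genes.

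Slc25a37, which supplies mitochondria with iron for heme, had the largest fold change of the members with T1D in WT. It was at 1167 CPM in A1757, 885 in A3767, 862 in A3903, 823 in A3904, and 650 in A3907 in WT Control. In WT T1D it was at 1040 CPM in A1764, 1128 in A1787, 1201 in A1758, 1364 in A3905, 1570 in A3906, and 937 in A3909. All 6 T1D mice were above the WT Control mean of 877 CPM, and 3 of 6 were above the highest WT Control mouse. This gave a log2 fold change of 0.46 (SE 0.15, adjusted p = 0.077 by edgeR). DESeq2 called it (log2 fold change 0.47, adjusted p = 0.0292) and called no other member, while calling 6.98% of all genes. It was also called in A36 to A39 mice alone (0.70, SE 0.17, adjusted p = 0.0176 by edgeR), together with Tfrc and Slc11a2, where 15.5% of all genes were called. With single mice left out, it passed the threshold without A1757 (0.58, adjusted p = 0.0315 by edgeR), when 688 of 14344 genes were called. It also passed without A3909 (0.52, adjusted p = 0.0324 by edgeR), when 1262 of 14341 genes were called. Without A3905 and A3906 it was 0.29 (SE 0.14, adjusted p = 0.462 by edgeR).

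Neither ferritin chain was called between WT groups. Fth1 ranged from 842 to 959 CPM in WT Control and from 904 to 1066 CPM in WT T1D, and 5 of 6 T1D mice were above every WT Control mouse. Its log2 fold change was 0.16 (SE 0.08, adjusted p = 0.27 by edgeR). Ftl1 ranged from 1465 to 2040 CPM in WT Control and from 1629 to 1957 CPM in WT T1D, and all T1D values were within the range of WT Control (log2 fold change -0.02, SE 0.09). Reads from ferritin pseudogenes could not be told apart from those of Fth1 and Ftl1 here.

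Slc40a1, the exporter, was at 138, 151, 147, 145, and 132 CPM in WT Control and ranged from 124 to 162 CPM in WT T1D, with medians of 145 and 147 CPM. The log2 fold change was 0.01 (SE 0.09, adjusted p = 0.95 by edgeR). Hfe ranged from 17.5 to 25.7 CPM in WT Control and from 12.7 (A3905) to 24.2 CPM in WT T1D. Its log2 fold change of -0.21 (SE 0.13, adjusted p = 0.336 by edgeR) was -0.09 (SE 0.11) without A3905 and A3906.

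The scale mattered for these comparisons. In limma on log2(TPM + 1), the median of all genes was shifted by -0.24 with T1D in WT, and hemoglobin genes made up 33.2% to 46.9% of TPM in WT T1D compared with 28.5% to 36.8% in WT Control. On this scale 35.9% of all genes were called, and 2 of 9 members were, both lower in T1D. Ftl1 was at -0.30 (SE 0.10, adjusted p = 0.0282 by limma) and Hfe was at -0.49 (SE 0.17, adjusted p = 0.0342 by limma). Slc11a2, Slc40a1, Steap3, and Fth1 were positive by TMM CPM and negative by TPM, with Slc11a2 at -0.08, Slc40a1 at -0.27, Steap3 at -0.12, and Fth1 at -0.13. Of these, Slc11a2, Steap3, and Fth1 were above the shifted median of all genes. Slc25a37 (0.18), Tfrc (0.09), and Tfr2 (0.01) stayed positive on both scales, but none of them was called by TPM.

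**Figure D3:**
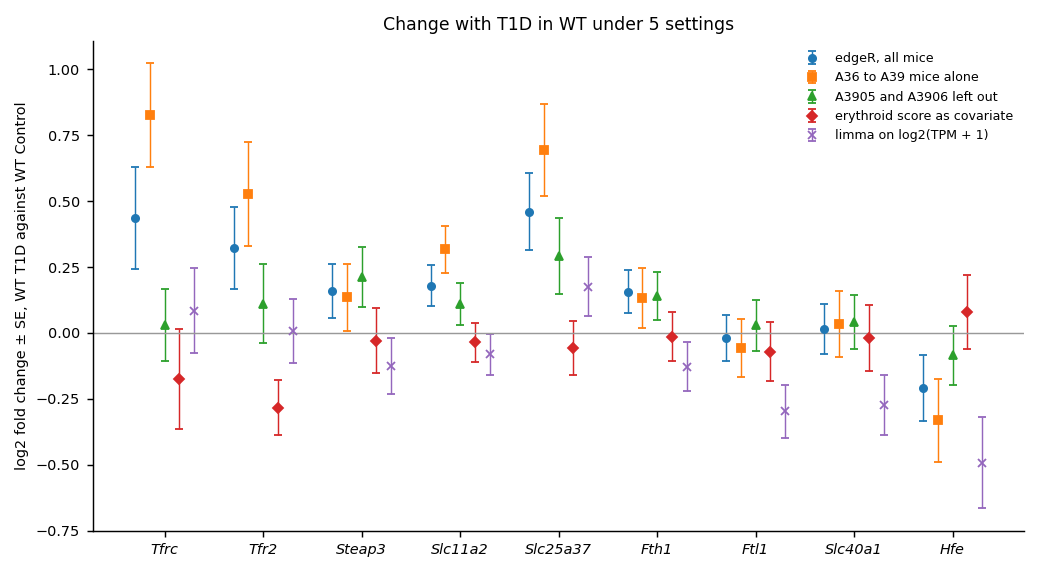
Log2 fold change ± SE of WT T1D against WT Control for the 9 iron genes, from edgeR in all mice, in A36 to A39 mice alone, without A3905 and A3906, and with the erythroid score as covariate, and from limma on log2(TPM + 1). Tfrc lies at 0.44 with all mice, 0.83 in A36 to A39 mice, and 0.03 without A3905 and A3906.

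In mice labelled KO, no difference with T1D was shown for the iron genes. None of the 9 was called by edgeR, DESeq2, or limma on TPM, and each of these tools called 0% of all genes. Fold changes ranged from -0.22 (Slc40a1) to 0.15 (Steap3) on the log2 scale, and Slc40a1 was the only member with an unadjusted p under 0.05, as had 3.15% of all genes. Slc40a1 was between 102 and 150 CPM in KO Control, with a median of 126, and between 91.7 and 122 CPM in KO T1D, with a median of 112. All 6 KO T1D mice were below the KO Control mean of 128 CPM, and 2 of 6 were below every KO Control mouse. The log2 fold change was -0.22 (SE 0.09, unadjusted p = 0.0215, adjusted p = 1 by edgeR). In the same comparison, 14 of 14 macrophage markers had negative log2 fold changes, with a median of -0.06 compared with -0.0016 for all genes. None of them was called, 1 had an unadjusted p under 0.05, and their part in the Slc40a1 value was not tested. Tfrc was between 193 and 346 CPM in KO Control and between 218 and 281 CPM in KO T1D, and the T1D values were within the range of KO Control. Slc25a37 overlapped in the same way, with medians of 901 and 940 CPM, although 1 KO T1D mouse was above all KO Control mice.

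In nondiabetic mice, no difference between genotypes was shown. Fold changes of KO Control against WT Control ranged from -0.16 (Slc40a1) to 0.10 (Slc11a2), and none of the 9 members was called by edgeR, where 0.0278% of genes were, by DESeq2 (0.0279%), or by limma on TPM (0.0348%). None of the 9 had an unadjusted p under 0.05 in edgeR, compared with 4.8% of all genes.

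The largest differences within the set were between KO T1D and WT T1D mice. This comparison shares the WT T1D mice with that of T1D against Control in WT, so the 2 are not independent. No member was called by edgeR (0.0905% of genes were), but 4 of 9 had an unadjusted p under 0.05, all lower in KO T1D, compared with 17.1% of all genes. The median of the 9 was -0.10 on the log2 scale compared with 0.01 for all genes. Without A3905 and A3906, 1 of 9 had an unadjusted p under 0.05 by edgeR, compared with 6.46% of all genes. All 9 fold changes were then negative, with a median of -0.13.

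Slc40a1 had the lowest p value of the members. In WT T1D it was at 144 CPM in A1764, 124 in A1787, 159 in A1758, 150 in A3905, 125 in A3906, and 162 in A3909. In KO T1D it was at 91.7 CPM in A3681, 101 in A3682, 110 in A3683, 114 in A3674, 119 in A3675, and 122 in A3676. All KO T1D values were thus below all WT T1D values, as for 0.863% of genes in either direction, and the nearest mice were A3676 and A1787. The log2 fold change was -0.39 (SE 0.09, unadjusted p = 0.000234, adjusted p = 0.0714 by edgeR), and the gene stood at rank 47 by p value. DESeq2 called it (-0.40, adjusted p = 0.00688), as it did 1.66% of all genes. EdgeR called it in A36 to A39 mice alone (-0.42, adjusted p = 0.0274), where 10.8% of all genes were called. EdgeR also called it in all mice but A1787 (-0.44, adjusted p = 0.0418), when 45 of 14348 genes were called. With the ID series as a term (-0.42, adjusted p = 0.0303 by edgeR), it was called along with 4.62% of all genes. These analyses share mice and are not independent, and none of them separates genotype from ID range. Without A3905 and A3906 Slc40a1 was at -0.43 (SE 0.10, adjusted p = 0.221 by edgeR), when 4 genes were called in all. By TPM, where the median of all genes was shifted by 0.17, it was -0.19 (adjusted p = 0.211 by limma).

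Markers of macrophages, a main site of ferroportin, were measured beside Slc40a1. Of 14 markers, none was called in KO T1D against WT T1D by edgeR, compared with 0.0905% of all genes. At an unadjusted p under 0.05 by edgeR, 4 were higher and 3 lower, compared with 17.1% of all genes. The median log2 fold change was -0.03. Without A3905 and A3906 the median was -0.04, and 1 was higher and 2 lower, compared with 6.46% of all genes. DESeq2 called 1 higher and 1 lower (1.66% of all genes), and limma on TPM called 4 higher (8.12%). Their summed level was 1323 to 1662 TPM in KO T1D and 1013 to 1446 TPM in WT T1D, on the scale where the median of all genes was shifted by 0.17. On the CPM scale, their mean log2 CPM was 5.78 ± 0.143 in KO T1D and 5.83 ± 0.102 in WT T1D (SD, n = 6 each). The highest log2 fold change was that of Adgre1, which encodes F4/80 (0.44, adjusted p = 0.075 by edgeR). The lowest were those of Marco, a scavenger receptor with a mean of 1.03 CPM (-1.08, adjusted p = 0.16), and Cd5l (-0.62, adjusted p = 0.119). These 3 were picked for naming after their values were seen. The part of these cells in the Slc40a1 difference was not tested.

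Tfrc was lower in KO T1D than in WT T1D by a log2 fold change of -0.62 (SE 0.18, unadjusted p = 0.00259, adjusted p = 0.141 by edgeR). KO T1D values were 253, 222, 281, 231, 248, and 218 CPM, and 5 of 6 were below the lowest WT T1D mouse (257 CPM). DESeq2 called Tfrc (-0.63, adjusted p = 0.0361), as did edgeR in A36 to A39 mice alone (-0.98, adjusted p = 0.00602). Tfrc and Slc40a1 were the 2 members called in each of these analyses, where 1.66% and 10.8% of all genes were called. With the ID series as a term, these 2 members were also called (Tfrc at -0.80, adjusted p = 0.022 by edgeR), as were 4.62% of all genes. In each of these analyses, genotype and ID range cannot be told apart. Without A3905 and A3906 the difference in Tfrc was -0.22 (SE 0.13, adjusted p = 0.784 by edgeR). Limma on TPM called 0 of 9 members and 8.12% of all genes in this comparison.

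Markers of other cell types moved in the same comparison. All 17 erythroid markers had negative log2 fold changes in KO T1D against WT T1D (median -0.40), as did 7 of 7 osteoclast markers (-0.54) and 6 of 6 muscle markers (-1.12), while 10 of 11 osteoblast and osteocyte markers were positive (0.69). The medians were -0.21 for erythroid, 0.08 for osteoclast, -1.23 for muscle, and 0.24 for osteoblast and osteocyte markers without A3905 and A3906. None of these markers was called by edgeR with or without these mice, compared with 0.0905% and 0.0279% of all genes. Of them, DESeq2 called only 5 erythroid markers, all lower (1.66% of all genes). Limma on TPM called only 5 osteoblast and osteocyte markers, all higher (8.12%). At an unadjusted p under 0.05 by edgeR were 13 of 17 erythroid markers, compared with 17.1% of all genes. So were 5 of 11 osteoblast and osteocyte and 2 of 7 osteoclast markers. Without these mice, these numbers were 1, 3, and 0, compared with 6.46%. The part of these cells in the Tfrc difference was not tested, other than by the erythroid score given below.

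Tfr2 ranged from 21.7 to 27.0 CPM in KO T1D and was at -0.38 against WT T1D (SE 0.15, adjusted p = 0.213 by edgeR). Slc25a37 ranged from 779 to 1117 CPM in KO T1D and was at -0.36 (SE 0.14, adjusted p = 0.209). For both genes all 6 KO T1D mice were below the WT T1D mean, but the groups overlapped. With single mice left out, both differences were weakest without A3906, at -0.28. The remaining members, Steap3, Slc11a2, Fth1, Ftl1, and Hfe, were between -0.10 and 0.03.

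**Figure D4:**
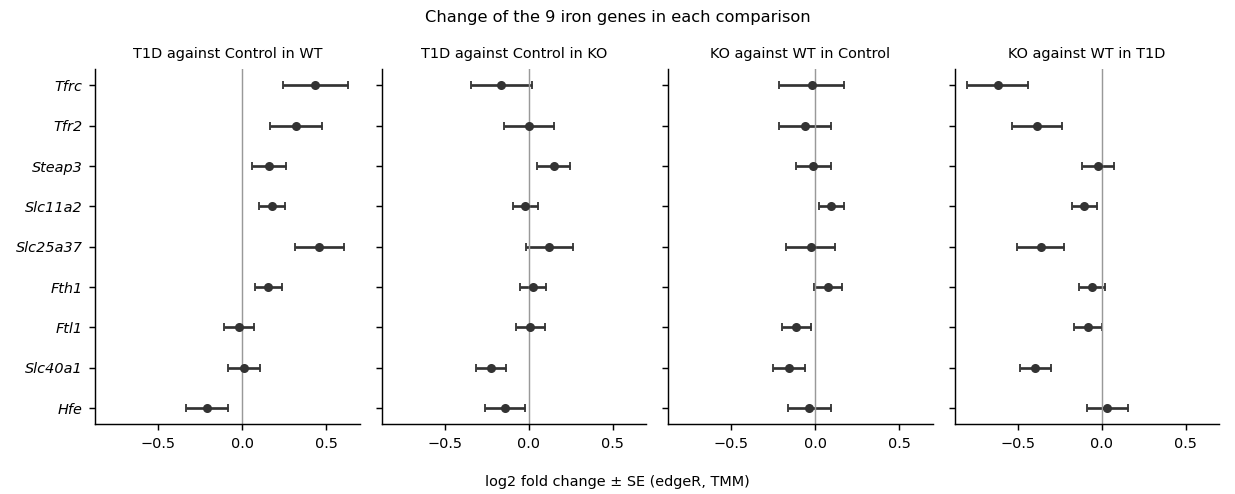
Log2 fold change ± SE from edgeR for the 9 iron genes in each of 4 comparisons, with T1D against Control on the left and KO against WT on the right. Slc40a1 is near 0 with T1D in WT (0.01) and at -0.39 between KO T1D and WT T1D, and Tfrc is at 0.44 and -0.62.

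Whether T1D acted differently in the genotypes was tested by the interaction. None of the 9 members was called by edgeR, where 0% of genes were, by DESeq2 (0%), or by limma on TPM (0.0139%). Estimates ranged from -0.60 (Tfrc) to 0.07 (Hfe). Tfrc alone had an unadjusted p under 0.05 (-0.60, SE 0.27, unadjusted p = 0.0339, adjusted p = 0.479 by edgeR), compared with 10.2% of all genes, and its estimate was -0.20 (SE 0.18) without A3905 and A3906. For Slc40a1 the interaction was -0.24 (SE 0.13, unadjusted p = 0.0835), so a difference in its response between genotypes was not shown.

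Members differed in how they followed erythroid RNA. An erythroid score was taken for each mouse as the mean log2 CPM of 17 erythroid markers, none of them a member of the set. It ranged from 9.22 to 9.76 in WT Control, 9.73 to 10.45 in WT T1D, 8.99 to 9.85 in KO Control, and 9.46 to 9.79 in KO T1D, with the highest values in A3906 and A3905. In a model of the groups with this score as covariate, Tfr2 rose by 1.01 (SE 0.12, adjusted p = 7.25e-06), Tfrc by 0.98 (SE 0.21, adjusted p = 0.00425), and Slc25a37 by 0.90 (SE 0.12, adjusted p = 2.74e-05) per unit of score by edgeR. Slc11a2 rose by 0.38 (SE 0.09, adjusted p = 0.00597) and Hfe fell by 0.52 (SE 0.16, adjusted p = 0.0389). The threshold for the score was thus passed by 5 of 9 members and by 13.7% of all genes. Steap3 (0.34), Fth1 (0.30), Ftl1 (0.09), and Slc40a1 (0.06, SE 0.15) did not pass it.

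With the score in the model, the T1D estimates in WT mice were -0.17 (SE 0.19) for Tfrc, -0.28 (SE 0.10) for Tfr2, -0.06 (SE 0.10) for Slc25a37, and -0.04 (SE 0.07) for Slc11a2. That of Slc40a1 in KO T1D against WT T1D was -0.37 (SE 0.11, adjusted p = 0.517 by edgeR), while that of Tfrc was -0.18 (SE 0.16). The score differed between WT T1D and WT Control themselves, so such a model cannot tell an effect of T1D on the score from one on the genes. It called 0 genes for T1D in WT and 4 for KO T1D against WT T1D.

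**Figure D5:**
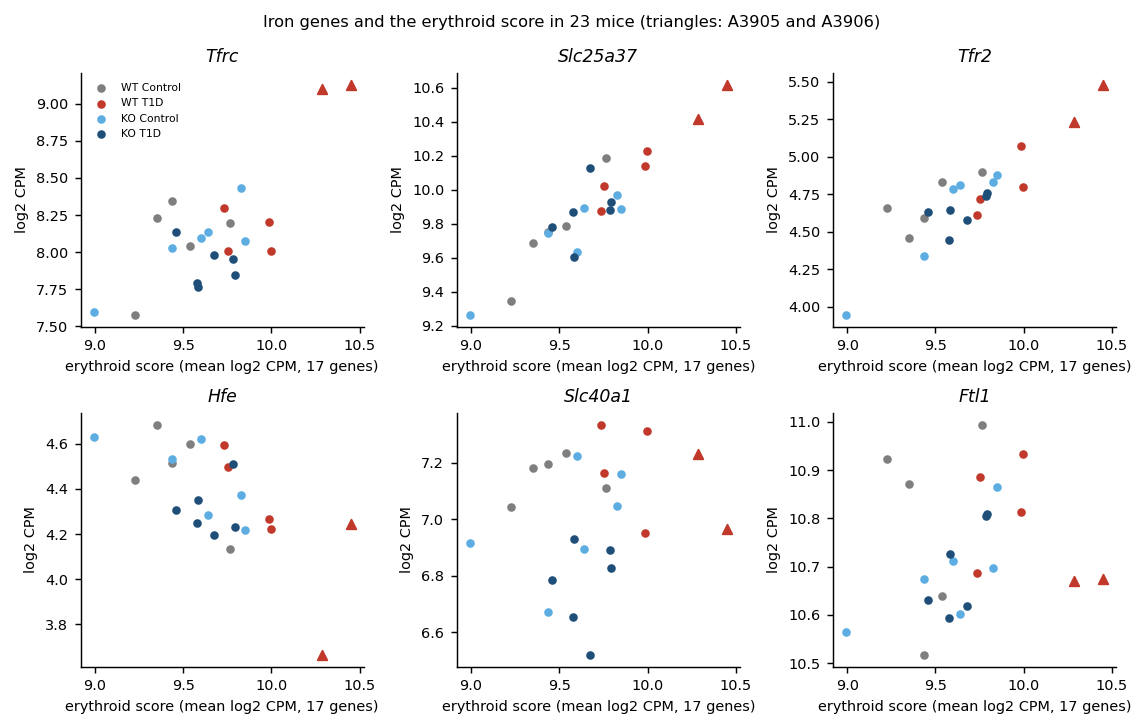
Log2 CPM of 6 iron genes against the erythroid score (mean log2 CPM of 17 erythroid markers) in 23 mice, colored by group, with triangles for A3905 and A3906. Tfrc, Slc25a37, and Tfr2 are higher and Hfe is lower in mice with a high score, while for Slc40a1 the KO T1D mice lie below the WT T1D mice.

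The genes with patterns most like each member were ranked by Pearson's r of log2 CPM over the 23 mice, as a description, since all genes share the libraries, the groups, and the erythroid content. Slc25a37 was closest to Kel (r = 0.95), a red cell antigen gene that is also one of the 17 erythroid markers, followed by Slc43a1 (0.942) and Slc38a5 (0.938). Without A3905 and A3906, the r with Kel was 0.923 over 21 mice. Tfr2 was closest to Atp2b4 (0.921), Abcb10 (0.908), which encodes a mitochondrial transporter of erythroid cells, and Usp7 (0.904). Tfrc was closest to Eps15 (0.903), Slc20a1 (0.901), and Clcn3 (0.886). Without A3905 and A3906, the r of Tfrc with Eps15 was 0.816. Slc11a2 was closest to Gclc (0.859), Tab3 (0.854), and Cenpn (0.853), and Steap3 was closest to Fam78a (0.888), Rfx2 (0.857), and Natd1 (0.842). Fth1 was closest to Smox (0.788), Atf1 (0.786), and Rgs12 (0.783), and Ftl1 to Zer1 (0.758), Plekhj1 (0.747), and Abhd17a (0.715). Hfe was closest to Prr16 (0.891), Tspan3 (0.844), and Cd2ap (0.82). After group means were subtracted, the first gene was Spire1 for Tfr2 (0.917), Slc38a5 for Slc25a37 (0.919), Cenpn for Slc11a2 (0.836), Fam78a for Steap3 (0.888), Brap for Fth1 (0.798), Abhd17a for Ftl1 (0.826), and Prr16 for Hfe (0.88). Slc20a1 was among the 3 nearest to Tfrc on both measures (0.884 after subtraction).

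Slc40a1 was closest to Adh1 (0.808), Fah (0.798), and Hmox1 (0.789). After group means were subtracted, its nearest gene was Spic (0.87), a transcription factor of iron-recycling macrophages that is also one of the 14 macrophage markers. The r with Spic was 0.894 over the 21 mice without A3905 and A3906. The next genes were Esm1 (0.833) and Adipoq (0.794), which are not among those markers. Hmox1 encodes heme oxygenase 1, which frees iron from heme upstream of export. It was at 248, 276, 227, 217, and 273 CPM in WT Control. It ranged from 267 to 370 CPM in WT T1D, from 167 to 304 CPM in KO Control, and from 148 to 234 CPM in KO T1D. As for Slc40a1, all KO T1D mice were below all WT T1D mice. These groups did not overlap for 0.863% of genes in either direction. Hmox1 is named here for its likeness to Slc40a1 over these same mice, so the 2 patterns are not independent. The log2 fold change of Hmox1 was -0.63 (SE 0.14, adjusted p = 0.0644 by edgeR, adjusted p = 0.00391 by DESeq2). DESeq2 called 1.66% of all genes. Without A3905 and A3906 the value for Hmox1 was -0.60 (adjusted p = 0.345 by edgeR).

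Other genes of iron handling were taken from lists written for this work, and 39 were tested. In T1D against Control in WT, none of the 39 was called by edgeR, while 2.33% of all genes were. At an unadjusted p under 0.05, 12 were higher and 2 were lower, compared with 22.2% of all genes in either direction. DESeq2 called 9 higher and 1 lower and 6.98% of all genes. Limma on TPM called 1 higher and 12 lower and 35.9% of all genes. When A3905 and A3906 were left out, 38 were tested and none was called by edgeR, with 7 higher and 1 lower at an unadjusted p under 0.05 and 11% of all genes past it. All 7 genes for mitochondrial iron and iron-sulfur clusters had higher values in WT T1D (median log2 fold change 0.32), 5 of them at an unadjusted p under 0.05, and DESeq2 called 4, while edgeR and limma on TPM called 0 of 7. All 7 were still positive (0.23) without A3905 and A3906, and 4 had an unadjusted p under 0.05. The erythroid markers, positive for 17 of 17 with a median of 0.56, moved in the same direction, and their part in these values was not tested. The medians were 0.95 for 4 genes of the hepcidin axis, 0.10 for 6 sensors of cell iron, 0.28 for 9 genes of heme transport and breakdown, -0.06 for 9 other transporters and reductases, and 0.00 for 4 carriers. These medians were, in the same order, 0.28 (3 genes tested), 0.07, 0.09, -0.15, and -0.14 without A3905 and A3906. With all mice, the hepcidin axis median rested in part on a gene with a mean of only 0.361 CPM, at 1.57 (SE 0.57). In KO T1D against WT T1D, none of the 39 was called by edgeR (0.0905% of all genes were), and 1 was higher and 15 were lower at an unadjusted p under 0.05, compared with 17.1% of all genes. When A3905 and A3906 were left out, 1 was higher and 3 were lower, compared with 6.46% of all genes. DESeq2 called only Hmox1 (1.66% of all genes), and limma on TPM called 2 higher and 1 lower (8.12%). In T1D against Control in KO, 2 were higher and 1 was lower at an unadjusted p under 0.05, compared with 3.15% of all genes, and neither edgeR nor DESeq2 called any.

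Among these genes with a mean of at least 1 CPM, the largest fold changes with T1D in WT were those of Erfe, Flvcr2, and Abcg2. Erfe encodes erythroferrone, the hormone by which red cell precursors suppress hepcidin. It was between 1.24 and 3.401 CPM in WT Control, and in WT T1D was at 19.7 CPM in A3905, 39.4 in A3906, and 1.63 to 3.43 CPM in the other T1D mice. Its log2 fold change of 2.38 (SE 0.68, adjusted p = 0.0559 by edgeR, 0.0149 by DESeq2) was 0.22 (SE 0.41) without A3905 and A3906. Abcg2, a heme and porphyrin exporter, was at 0.62 (SE 0.17, adjusted p = 0.0524 by edgeR), with 35.4 to 43.3 CPM in WT Control and 46.2 to 98.0 CPM in WT T1D. It was 0.29 (SE 0.13, adjusted p = 0.424 by edgeR) without A3905 and A3906, the mice with the highest values. Flvcr2, related to the heme exporter Flvcr1, was at -0.63 (SE 0.46, adjusted p = 0.429 by edgeR). It was at 0.566 CPM in A3905 and 0.578 CPM in A3906, and the other T1D mice, at 7.24 to 11.6 CPM, were within the WT Control range of 7.07 to 13.5 CPM. It was -0.09 (SE 0.20) without A3905 and A3906. The hepcidin genes Hamp and Hamp2 did not pass the filter on low counts.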

How the data were processed

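Bone RNA from 23 mice had been prepared with oligo dT, a strand-marked kit, and DNBSEQ sequencing, 1 library per mouse. The submitters' pipeline used SOAPnuke for read filtering, then HISAT and Bowtie2 with GRCm38.p6. The authors deposited RSEM expected counts, rounded to whole numbers, and TPM values from the sequencing provider. From these, counts were fitted in R 4.3.3 with edgeR 4.0.16 (TMM, quasi-likelihood test, 4 group means, a minimum of 10 counts in 5 or more mice) and adjusted over all 14364 genes by Benjamini-Hochberg. Alternatives used DESeq2 1.42.0, limma 3.58.1 on log2(TPM + 1) or log2(TPM + 0.1), which understates changes of low genes, other scalings, subsets of mice, an erythroid covariate, and, added after the data were seen, the mouse ID series. Log2 correlations used CPM + 0.5. The SE was the fold change divided by the square root of F. Scripts were tested on simulated data. In 55 pairs of mice of a group, chi-square per gene was 10.9 to 187, so no library was taken as a repeat. Mouse IDs were not shared between groups.

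The members and the gene lists were chosen with earlier results of these data known. Genes named were all 9 members, the 3 nearest genes of each over all mice (after group means were subtracted, the first of the 3, and for Slc40a1 all 3), any other iron gene called and the 3 with the largest fold change with T1D in WT at a mean of 1 CPM or more, and up to 3 markers per list. A gene that met this rule is not reported here. Hjv and Tf were matched by gene ID under an older or synonymous symbol. Ftmt and Ahsp had no match. IRE letters were searched in GENCODE M21 transcripts of GRCm38, the build of the counts.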

Additional observations from a re-analysis of the deposited data

How the results depend on the processing

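The number of members called by edgeR was 0 in all 5 comparisons. For T1D in WT it was 1 with DESeq2, 2 with limma on log2(TPM + 1), 2 with limma on log2(TPM + 0.1), and 3 in A36 to A39 mice alone. It ranged from 0 to 1 when each mouse was left out. That member was Slc25a37, without A1757 (0.58, with 688 genes called in all) or without A3909 (0.52, with 1262). For KO against WT in T1D the number of members called was 2 with DESeq2 and 2 in A36 to A39 mice alone. It was 0 to 1 with each mouse left out (Slc40a1 without A1787, with 45 genes called in all). With the ID series as a term, an alternative added after the data were seen, it was 0 for T1D in WT and 2 for KO against WT in T1D. In the other 3 comparisons, it was 0 under all alternatives. The number of all genes called with T1D in WT, 334 by edgeR, was 88 with no filter on low counts, 1002 with DESeq2, 5154 with limma on log2(TPM + 1), 2211 in A36 to A39 mice alone, 802 with the ID series as a term, 0 with the erythroid covariate, and 0 without A3905 and A3906. For KO against WT in T1D it was 13 by edgeR, 239 with DESeq2, 1166 with limma on log2(TPM + 1), 1540 in A36 to A39 mice alone, 664 with the ID series as a term, 3 with no filter, 5 with DESeq2 size factors, 4 with the erythroid covariate, 4 without A3905 and A3906, and 3 to 95 with each mouse left out.

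Fold changes that turned direction include those of Slc25a37 (0.46), Tfrc (0.44), and Tfr2 (0.32), the 3 highest of the members with T1D in WT. With T1D in WT, limma at the larger and smaller pseudocount gave -0.0806 and -0.0845 for Slc11a2, -0.273 and -0.278 for Slc40a1, -0.124 and -0.127 for Steap3, and -0.1281 and -0.1282 for Fth1. With the erythroid covariate, T1D in WT gave -0.173 for Tfrc, -0.283 for Tfr2, -0.0573 for Slc25a37, -0.0358 for Slc11a2, -0.0182 for Slc40a1, -0.0286 for Steap3, -0.0134 for Fth1, and 0.079 for Hfe, and KO against WT in T1D gave 0.0412 for Tfr2 and 0.0075 for Slc25a37. Without A3905 and A3906, Ftl1 was 0.0292. In A17 mice alone, with 1 WT Control mouse, T1D in WT gave -0.124 for Tfrc, -0.0274 for Tfr2, -0.0554 for Slc25a37, -0.114 for Slc11a2, and 0.201 for Hfe. With each mouse left out, Ftl1 ranged from -0.0819 to 0.0341 and Slc40a1 from -0.0215 to 0.0608 with T1D in WT. Values were followed under the 9 alternatives other than single mice left out and the ID series. For all members with T1D in WT, and elsewhere for members with an unadjusted p under 0.05 by edgeR, this gave 135 values. Of these, 104 kept direction and side of the threshold, 12 passed it newly, and 19 turned direction. Of 270 values for the other pairs of member and comparison, 223 kept both and 47 turned direction. The causes were not tested. No paired analysis was possible because mouse IDs are not shared between groups.

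Limits are the group size of 5 or 6 mice, the uneven ID series in the WT groups, and the ID ranges, which differ between KO T1D and WT T1D. A further limit is A3905 and A3906, which decide the Tfrc, Erfe, and Flvcr2 values. Hfe and Tfr2 had the fewest counts, down to 224 and 279, and the counting error is largest for them. DESeq2 and edgeR differ on Slc25a37, Tfrc, and Slc40a1, whose edgeR adjusted p values were between 0.0714 and 0.141.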
